A study of Mus musculus with 16 samples.

Results

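Glutathione S-transferases are a family of detoxifying enzymes, and 10 of their genes were followed here in the retinal pigment epithelium (RPE) of the mouse. The 10 genes were chosen by name from the 51912 genes of the deposited count table and fall into 6 classes. The mu class is represented by Gstm1, Gstm2, Gstm4 and Gstm5, the alpha class by Gsta3 and Gsta4, and the pi, theta, omega and microsomal classes by Gstp1, Gstt1, Gsto1 and Mgst1. All 10 passed the filter on low counts (a mean level of 1 CPM or more over the libraries, where CPM are counts scaled to 1000000 per library), as did 15380 genes in all.

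The RPE is the pigmented cell layer behind the photoreceptors, and hydroquinone is an oxidant that cells can turn into a reactive quinone. Mice were males of 40 weeks on the C57BL/6 background, and were wild type or lacked Sucnr1, which encodes a receptor for succinate. Both genotypes were studied without treatment and after hydroquinone, and the kind of knockout allele and the dose, route and length of exposure are not given in the sources used here. Each of the 16 libraries came from 1 eye, with 4 libraries in each of the 4 groups, taken from 2 untreated wild-type mice, 4 wild-type mice with hydroquinone, 3 untreated knockout mice and 4 knockout mice with hydroquinone by the titles. The protocol text instead gives 4 animals per group, and the titles were followed.

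Glutathione is a small thiol that cells hold at high levels. Glutathione S-transferases join it to electrophiles such as quinones and lipid aldehydes, and the conjugates are then exported and broken down to mercapturates. The cytosolic classes differ in the substrates they prefer, and Mgst1 sits in membranes. Many genes of the family are known targets of NRF2 (gene Nfe2l2), a transcription factor that is released from its inhibitor KEAP1 when oxidants or electrophiles modify KEAP1, and that binds the antioxidant response element in DNA.

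Library totals ranged from 21113549 to 35332444 counts. Sucnr1 itself was too low to check the genotype labels, with 29 counts in the 8 wild-type and 4 counts in the 8 knockout libraries, and it was at 0 in 4 and 6 of them, respectively. The 12 RPE markers had a mean log2(CPM + 1) of 9.04 to 9.96 in every library, so the labelled tissue was present throughout. Other tissues were present too. The same score was 2.82 to 9.76 for 15 markers of rods, with that of 7 corneal and surface epithelium markers at 7.85 to 10.4 and that of 6 oligodendrocyte markers at 2.88 to 8.88. The highest rod scores belonged to untreated knockout replicate 4 and to knockout with hydroquinone replicate 1. The highest corneal scores belonged to replicates 1 and 2 of wild type with hydroquinone. Fold changes of Gstm1, Gstp1, Gsta3, Mgst1, Gsta4 and Gsto1 are given with these libraries and, in the genotype they belong to, without them.

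Across the libraries, the family was dominated by Gsto1 and Gsta4. Levels between genes were compared per kilobase of annotated exon. Gsto1, the omega class enzyme that reduces dehydroascorbate and mixed disulfides, was highest with 2377 ± 1010 CPM per kb (SD over 16 libraries). Gsta4, the alpha class enzyme that conjugates hydroxynonenal and related lipid aldehydes, followed with 874 ± 403 CPM per kb. Gsto1 lay above Gsta4 in 16 of 16 libraries, and Gsta4 lay above the third gene, Gstm1, in 16 of 16.

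Below these 2 genes the order was less sharp. Gstm1 (85.6 ± 28.5 CPM per kb), Gstp1 (83.7 ± 16.1), Gsta3 (75.3 ± 24.5) and Mgst1 (66.8 ± 16.5) followed each other within their spread (SD over 16 libraries). Gstm1 was above Gstp1 in 7 of 16 libraries, Gstp1 above Gsta3 in 10 and Gsta3 above Mgst1 in 13. The next gene by mean, Gstm5 (49.0 ± 5.43 CPM per kb), lay below Mgst1 in 16 of 16 libraries. Gstt1 (28.2 ± 4.94), Gstm2 (19.1 ± 3.05) and Gstm4 (5.66 ± 0.955 CPM per kb) came last in that order in every library.

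**Figure D1:**
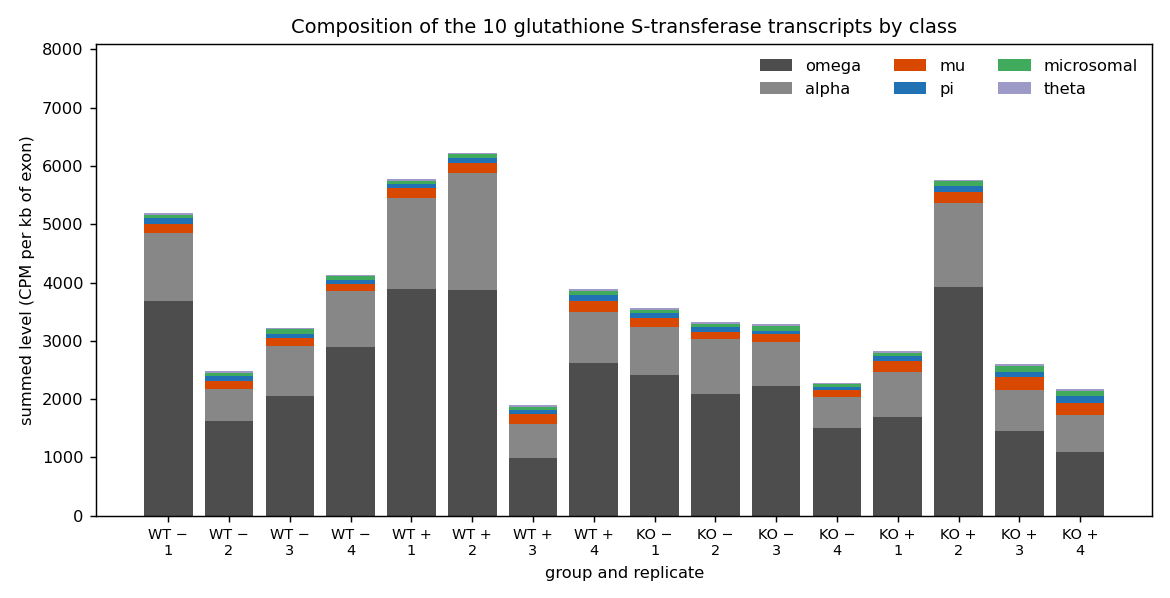
Summed level of the 10 genes by class in each library, in CPM per kilobase of exon; bars start at 0 and − and + stand for untreated and hydroquinone. The omega and alpha classes make up most of every bar, and the bar height changes with them.

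By class, omega held 67.5 ± 3.63% of the summed per-length level in untreated wild type and 62.4 ± 7.03% with hydroquinone (SD, n = 4 libraries each). Its share in knockout was 66.1 ± 2.36% untreated and 58.5 ± 7.65% exposed. The alpha class held between 23.8 ± 2.05% (untreated wild type) and 28.3 ± 4.37% (wild type with hydroquinone). The mu class, with 4 genes, held 3.82 ± 1.15% and 4.79 ± 2.85% in untreated and exposed wild type, and 4.22 ± 0.417% and 6.96 ± 2.63% in the same order in knockout. These shares overlap between groups and move with the omega and alpha levels, so levels of single genes are used below.

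Hydroquinone was followed by a higher level of 1 of the 10 genes, Gstm1, with the mu class neighbours of Gstm1 near their untreated levels. In bulk tissue, a change in the number of cells of a type and a change in RNA per cell cannot be told apart. Gstm1 (ENSMUSG00000058135, GRCm38 chromosome 3, 108012255 to 108017973, minus strand) encodes a mu class transferase that accepts a broad range of electrophiles. In untreated wild type its level was 106, 95.9, 85.3 and 83.2 CPM in replicates 1 to 4. With hydroquinone it was 132, 126, 148 and 157 CPM, so each exposed wild-type library lay above each untreated one, as was the case for 1.28% of all genes. In untreated knockout it was 99.2, 102, 80.0 and 69.2 CPM. In knockout with hydroquinone it was 170.2, 177, 194 and 192 CPM, again with no overlap (1.08% of all genes) and with every library above all those of exposed wild type.

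In the knockout, Gstm1 rose 2.09-fold (log2 fold change 1.07, SE 0.13, 95% interval 0.80 to 1.33, edgeR adjusted p = 0.0024). Of the 10 genes, 1 passed the threshold of an adjusted p below 0.05 there, against 0.0455% of all genes tested. In wild type the change was 1.5-fold (log2 fold change 0.59, SE 0.12, 95% interval 0.32 to 0.86). It did not pass with edgeR (adjusted p = 0.440, unadjusted p = 2.8e-04), while DESeq2 called it (adjusted p = 0.0061). Of all genes in wild type, edgeR called 0.0065% and DESeq2 0.13%. Averaged over genotype, Gstm1 rose 1.77-fold (log2 fold change 0.83, SE 0.09, edgeR adjusted p = 7.0e-04), as the only one of the 10 genes past the threshold, against 0.0845% of all genes.

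The call averaged over genotype held without the libraries with most rod or corneal RNA. Over all alternatives the edgeR, DESeq2 or limma adjusted p of Gstm1 ranged from 9.7e-16 to 0.999 averaged, from 2.9e-12 to 1.00 in knockout and from 0.0061 to 1.00 in wild type. Averaged over genotype, the log2 fold change of Gstm1 was 0.79 without the libraries of highest rod score (edgeR adjusted p = 0.0014), 0.88 without those of highest corneal score (adjusted p = 0.0023) and 0.85 with the eyes of a mouse summed (adjusted p = 0.014). In knockout, the value of Gstm1 without the libraries of highest rod score was 0.99 (edgeR adjusted p = 0.014), and in wild type without those of highest corneal score it was 0.69 (adjusted p = 0.690). With eyes summed, which leaves 2 untreated wild-type mice, the wild-type value was 0.60 (SE 0.15) and did not pass with edgeR. The score of 7 Muller glia markers, another cell type that could carry Gstm1 RNA, was 6.32 to 7.31 in untreated and 5.73 to 6.47 in exposed wild type. It was 6.53 to 7.55 in untreated and 6.31 to 7.46 in exposed knockout, and none of these markers was at 0. Library identifiers come with or without a letter, and the labels do not say what the letter marks. In untreated wild type the right eyes have none and the left eyes have one, so letter and eye cannot be told apart there. Without a letter, the log2 fold change of Gstm1 was 0.47 in wild type and 0.78 in knockout, and with a letter it was 0.75 and 1.35. Neither subset alone gave a call (edgeR adjusted p = 1.00 without and 0.116 with a letter in knockout), nor did a fit of the knockout groups alone (log2 fold change 1.05, adjusted p = 0.287).

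**Figure D2:**
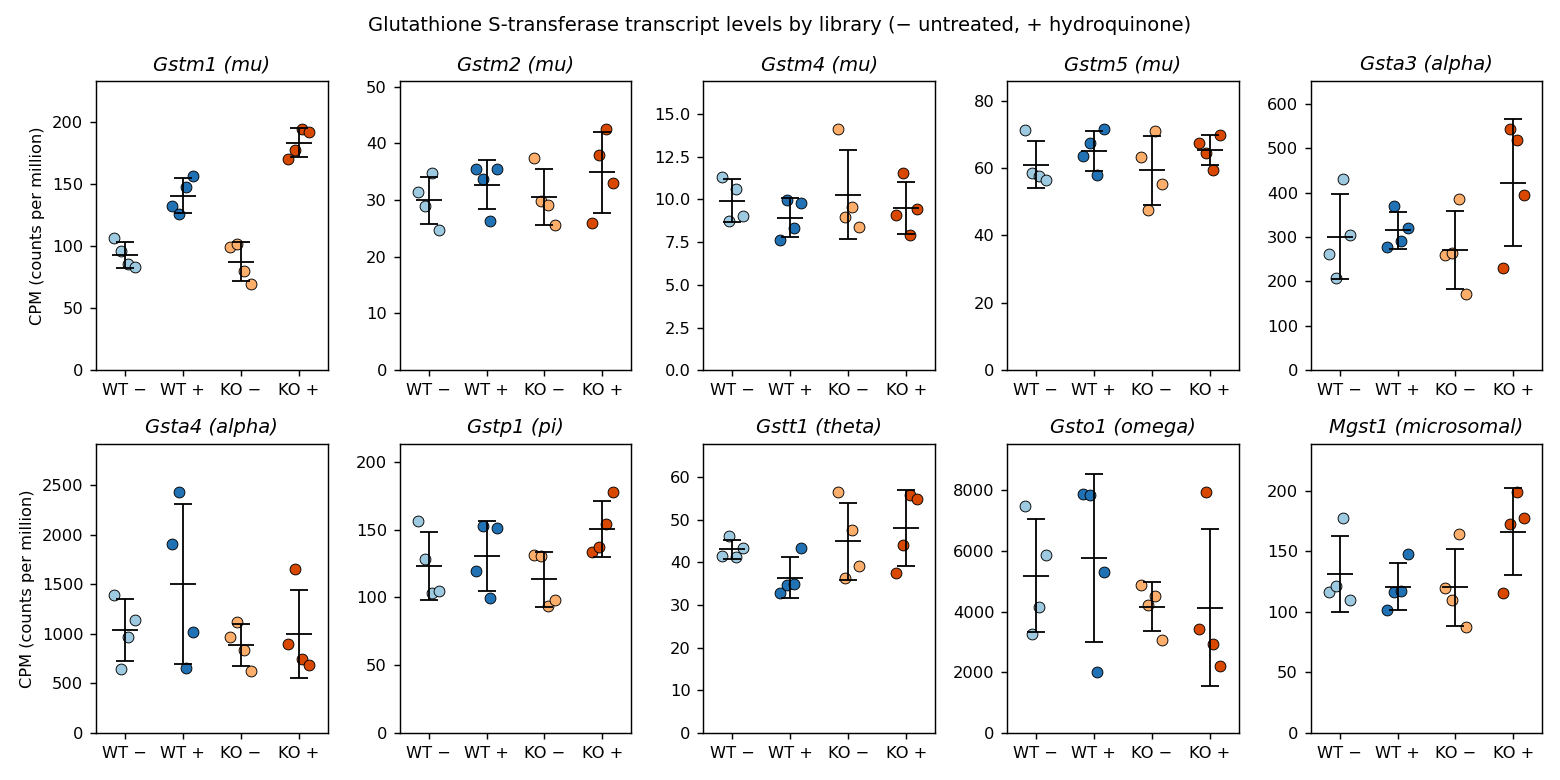
Level of each gene in CPM by group, with 1 point per library, a line at the mean and error bars of 1 SD (n = 4); − and + stand for untreated and hydroquinone, WT for wild type and KO for Sucnr1 knockout. The exposed libraries lie above the untreated ones in both genotypes for Gstm1 only, and Gsto1 and Gsta4 spread widely inside their groups.

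The other mu class genes lie in the same cluster, within 149.1 kb of chromosome 3. Gstm2 (107981702 to 107986453, minus strand) was at 29.9 ± 4.2 CPM in untreated and 32.7 ± 4.34 CPM in exposed wild type, and at 30.5 ± 4.96 and 34.9 ± 7.08 CPM in the knockout groups (SD, n = 4 libraries each). Gstm5 (107895821 to 107898686, plus strand) was at 61.0 ± 6.97 and 65.0 ± 5.82 CPM in wild type and at 59.3 ± 10.1 and 65.3 ± 4.46 CPM in knockout. Gstm4 (108040408 to 108044894, minus strand) was the lowest of the family, at 9.93 ± 1.26 and 8.93 ± 1.13 CPM in wild type and 10.3 ± 2.61 and 9.50 ± 1.51 CPM in knockout. Untreated and exposed libraries overlapped for each of these 3 genes in both genotypes. Averaged over genotype, the 95% intervals of their log2 fold changes were -0.10 to 0.40 for Gstm2, -0.08 to 0.30 for Gstm5 and -0.43 to 0.15 for Gstm4. These intervals end below the lower bound of 0.64 for Gstm1.

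The share of Gstm1 in the summed per-length level of the mu class is computed from the same levels. A higher share follows from a higher Gstm1 beside neighbours near their untreated levels, so the share is a description and no separate evidence. The share was 46.8 ± 1.78% in untreated wild type and 55.8 ± 3.53% with hydroquinone (SD, n = 4 libraries each). In the knockout it was 45.6 ± 5.55% and 61.6 ± 1.35%. The ranges did not overlap, at 44.6 to 48.9% against 52.1 to 60.4% in wild type and 40.9 to 53.4% against 60.1 to 63.3% in knockout. Such shares were not computed for other genes.

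The ratio of Gstm1 to each other gene within a library does not depend on how libraries are scaled, so it is given for 8 exposed and 5 untreated mice, with eyes of a mouse averaged and both genotypes together. All 9 ratios share Gstm1 and were chosen after its rise was known, so they are a description with no test. The log2 ratio of Gstm1 to Gstt1 was 1.95 ± 0.141 in exposed and 1.06 ± 0.291 in untreated mice (SD), a difference of 0.89. The difference was 0.95 for the ratio to Gstm4, 0.69 for Gstm5, 0.68 for Gstm2, 0.61 for Mgst1 and 0.60 for Gstp1. Exposed and untreated mice did not overlap for 5 of these 6 ratios, Gstm5 being the exception. The share of all genes for which this holds was not computed. Gstm1 by itself already separated exposed from untreated libraries in both genotypes, so the count is no result about the other genes.

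For the remaining 3 genes the ratios overlapped between exposed and untreated mice. The log2 ratio of Gstm1 was higher in exposed mice by 0.42 against Gsta3, by 0.57 against Gsta4 and by 0.86 against Gsto1. The SD among exposed mice was 0.901 for the ratio to Gsta4 and 0.985 for that to Gsto1.

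**Figure D3:**
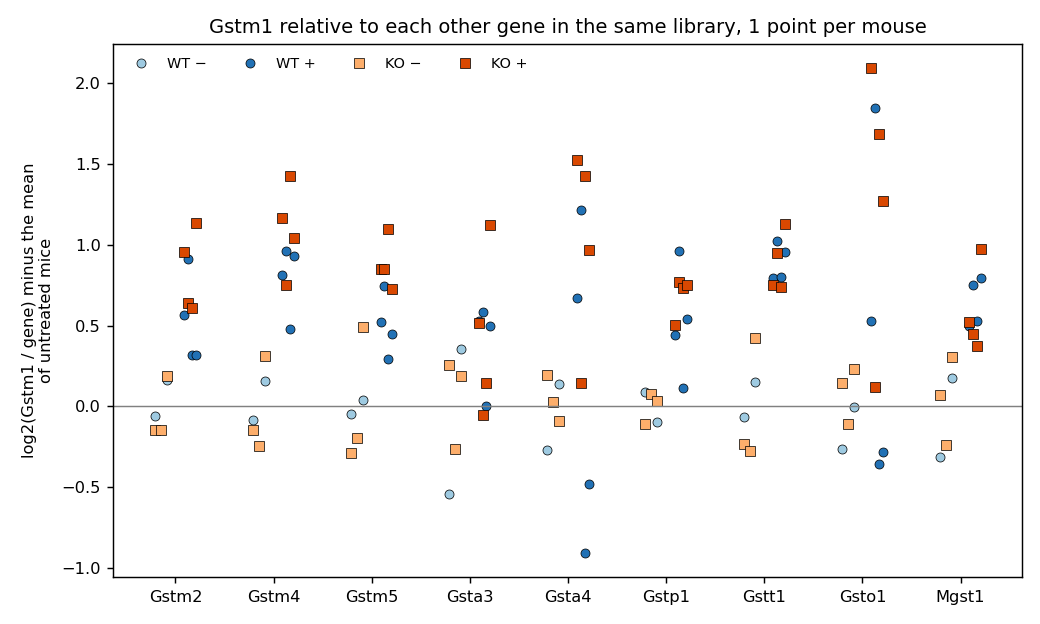
Log2 ratio of Gstm1 counts to those of each other gene, minus the mean of untreated mice, with 1 point per mouse (eyes averaged); circles are wild type, squares knockout, light untreated and dark hydroquinone. Exposed mice lie above untreated mice for Gstm2, Gstm4, Gstp1, Gstt1 and Mgst1, and spread widely for Gsta4 and Gsto1.

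Part of the reads of these genes may not be assigned with certainty. This was judged from transcript windows of 50 bases, a length chosen for the comparison, and not from the reads. Of the 50-base windows of Gstm1 transcripts, 18.9% also occur in transcripts of another gene, most often the pseudogene Gstm2-ps1. For Gstm2 this share was 5.65% and for Gstm5 9.44%, and no such window was found for Gstm4.

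RefSeq windows on GRCm38.p6, from 250 bases before to 50 bases after a start site, were given for 9 of the 10 genes, not for Gsta4. The element's core, TGACNNNGC on either strand, was found in the windows of 3 of these 9 genes, Gstm5, Gsta3 and Mgst1, and in those of 14% of all 27025 genes. None of the 3 passed the test with hydroquinone. The Gstm1 window at the annotated gene start is printed as the one that changed most, and no match was found in it or in the window of its other start site. It is chr3:108017924-108018223, minus strand, all in lower case because nothing matched.
Gstm1: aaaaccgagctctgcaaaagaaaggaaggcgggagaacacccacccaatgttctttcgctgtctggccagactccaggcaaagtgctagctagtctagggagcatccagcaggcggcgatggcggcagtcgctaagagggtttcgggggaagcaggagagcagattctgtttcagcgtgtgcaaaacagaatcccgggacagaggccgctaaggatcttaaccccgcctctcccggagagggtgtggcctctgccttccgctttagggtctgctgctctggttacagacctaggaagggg
The 3 windows with a match are shown as the stretch around it, with the 9 matching bases in capitals, to compare them with Gstm1. They lie at chr3:107895782-107895850 (Gstm5), chr1:21240434-21240502 (Gsta3) and chr6:138140441-138140509 (Mgst1), all on the plus strand, and the Mgst1 match is on the opposite strand.
Gstm5: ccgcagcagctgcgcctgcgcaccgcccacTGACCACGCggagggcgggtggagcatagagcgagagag
Gsta3: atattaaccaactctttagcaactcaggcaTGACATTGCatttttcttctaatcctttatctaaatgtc
Mgst1: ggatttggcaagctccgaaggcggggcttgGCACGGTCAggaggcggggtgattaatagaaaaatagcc
The AP-1 site TGANTCA, a related motif, was found in the windows of Gstm5 and Gstp1 at 176 and 74 bases before the start, not overlapping the core above, and in those of 8.97% of all genes. The Gstp1 match is TGAGTCA followed by GC, which differs from the core searched only in having TGAG for TGAC. Such variants of the core were not searched, so a window without a match may still hold one. A match is a sequence of letters in a short window, and binding was not measured.

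Outside the mu class, no gene passed the threshold with hydroquinone. Of the 10 genes, 7 had a log2 fold change above 0 in wild type, 8 in knockout and 8 averaged over genotype, against 50%, 49.6% and 51.2% of all genes tested. The median log2 fold change of the 10 genes was 0.08 in wild type, 0.18 in knockout and 0.16 averaged, and that of all genes was within 0.005 of 0 in each. In knockout, 4 of the 10 genes had an unadjusted p below 0.05 (Gstm1, Gsta3, Gstp1 and Mgst1), against 2.96% of all genes. In wild type this held for Gstm1 alone, against 4.28% of all genes, and averaged over genotype again for Gstm1 alone, against 5.72%. The 10 genes were named with such results known, so these shares describe them and test nothing.

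Gstp1, the pi class enzyme, is on chromosome 19 (4035407 to 4037985, minus strand). Its level in untreated knockout was 131, 130.4, 93.8 and 98.2 CPM, and in knockout with hydroquinone it was 133, 137, 154 and 178 CPM. Exposed knockout libraries all lay above untreated ones, as they did for 1.08% of all genes tested. The log2 fold change was 0.41 (SE 0.17, edgeR adjusted p = 1.00, unadjusted p = 0.033) in knockout and 0.07 (SE 0.17, adjusted p = 0.994) in wild type, where levels overlapped between 103 to 157 CPM and 99.7 to 153 CPM. Without the libraries of highest rod score the knockout value was 0.38 (SE 0.20), and without those of highest corneal score the wild-type value was -0.0039 (SE 0.21). With the rod score as a covariate the knockout value was 0.35 (SE 0.16). It was 0.0398 among libraries without a letter (replicates 1 and 2 of each knockout group) and 0.77 among those with one (replicates 3 and 4). The wild-type values were -0.0931 and 0.32 in that order, and the cause was not tested. Gstp1 shares 33.7% of its transcript windows with Gstp2, whose group means were 0.994 to 1.78 CPM, so the assignment of part of its reads may be uncertain.

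Gsta3, an alpha class gene on chromosome 1 (21240589 to 21265661, plus strand), was at 260.0, 264, 385 and 171 CPM in untreated knockout and at 231, 543, 520 and 396 CPM with hydroquinone. Of the exposed libraries, 3 lay above all untreated ones and replicate 1, the library with the high rod score, did not. The log2 fold change was 0.64 (SE 0.28, edgeR adjusted p = 1.00, unadjusted p = 0.039) in knockout and 0.06 (SE 0.28, adjusted p = 0.996) in wild type. In wild type the untreated range of 207 to 431 CPM enclosed the exposed range of 277 to 371 CPM. Without the libraries of highest rod score the knockout value was 0.67 (SE 0.25, edgeR adjusted p = 0.807), and without those of highest corneal score the wild-type value was 0.0032 (SE 0.36). With the rod score as a covariate the knockout value was lower, at 0.43 (SE 0.25).

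Mgst1, the membrane-bound transferase and peroxidase on chromosome 6 (138140316 to 138156755, plus strand), was at 119, 109, 164 and 87.8 CPM in untreated knockout and at 115, 173, 199 and 178 CPM with hydroquinone. As for Gsta3, the exposed library with the high rod score was the one that stayed inside the untreated range. It also had the lowest RPE marker score of the 16 libraries, at 9.04. The other exposed knockout libraries were at 9.54, 9.88 and 9.96, and the untreated ones at 9.23 to 9.67. Whether the share of RPE bears on these levels was not tested. The log2 fold change was 0.46 in knockout (SE 0.21, edgeR adjusted p = 1.00, unadjusted p = 0.043) and -0.14 in wild type (SE 0.21, adjusted p = 0.994). Without the libraries of highest rod score it was 0.47 in knockout (SE 0.20, adjusted p = 0.807), and without those of highest corneal score it was -0.01 in wild type (SE 0.26). With the rod score as a covariate the knockout value of Mgst1 was lower, at 0.32 (SE 0.18). Gstt1, the theta class gene on chromosome 10 (75783813 to 75798584, minus strand), a class that acts on small halogenated compounds, was at 43.1 ± 2.27 and 36.4 ± 4.71 CPM in untreated and exposed wild type and at 44.9 ± 9.10 and 48.0 ± 8.85 CPM in knockout (SD, n = 4 libraries each). Its log2 fold change was -0.25 in wild type (SE 0.15) and 0.09 in knockout (SE 0.15), neither of them past the threshold (edgeR adjusted p = 0.994 and 1.00).

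**Figure D4:**
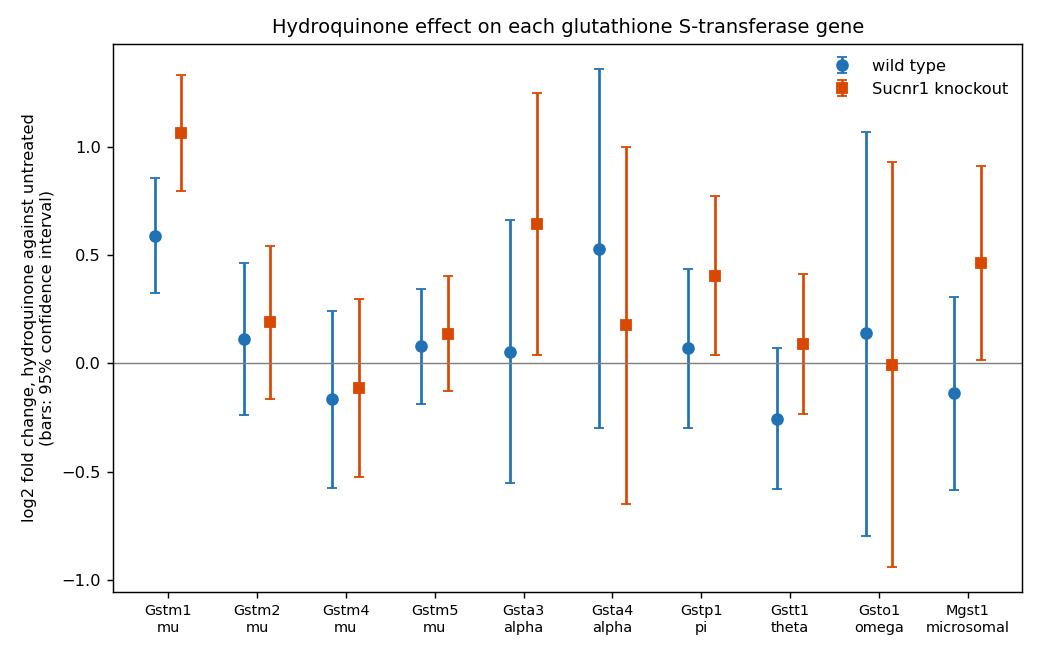
Log2 fold change of each gene, hydroquinone against untreated, in wild type (circles) and knockout (squares), with 95% confidence intervals from edgeR (not adjusted for the number of genes). Gstm1 stands at 0.59 and 1.07, and the intervals of Gsta4 and Gsto1 are the widest.

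The omega gene Gsto1 and the alpha gene Gsta4 varied far more between libraries of a group than between groups. Gsto1 (chromosome 19, 47854970 to 47864790, plus strand) was at 7467, 3276, 4153 and 5855 CPM in untreated wild type and at 7860, 7842, 2008 and 5304 CPM with hydroquinone. In knockout it was at 4881, 4215, 4517 and 3051 CPM untreated and at 3440, 7942, 2941 and 2193 CPM with hydroquinone. The exposed groups hold both the highest and the lowest libraries. Gsta4 (chromosome 9, 78182774 to 78209349, plus strand) was at 1396, 645, 967 and 1137 CPM in untreated wild type and at 1908, 2433, 658 and 1016 CPM with hydroquinone. In knockout it was at 970, 1118, 837 and 625 CPM untreated and at 899, 1658, 747 and 689 CPM with hydroquinone. The libraries that were high for one gene were mostly high for the other.

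Both genes followed the corneal and surface epithelium markers, a score of Krt12, Krt5, Krt14, Krt15, Aldh3a1, Cdh1 and Trp63. Correlations were run for this marker score alone and were not part of the plan. The anterior segment, which holds the cornea, was removed in the dissection, and none of these 7 markers was at 0 in any library. Krt12, the corneal keratin, was at 7508 and 10220 CPM in replicates 1 and 2 of exposed wild type and at 429 CPM in replicate 3, the libraries of that group with the highest and the lowest Gsto1. The library with the highest Gsto1 of all, replicate 2 of exposed knockout, had 1412 CPM of Krt12 and a corneal score of 9.64. Over 13 mice with eyes averaged, the score correlated with log2(CPM + 1) of Gsta4 (Pearson's r = 0.947, permutation p = 1e-05, the smallest the resampling can give, adjusted p = 1.0e-04 over 10 genes; Spearman's rho = 0.956, permutation p = 1e-05) and of Gsto1 (r = 0.918, permutation p = 3e-05, adjusted p = 1.5e-04; rho = 0.896, permutation p = 1e-04). Without the 2 mice farthest from the median score, r was 0.884 for Gsta4 and 0.903 for Gsto1. Among libraries without a letter r was 0.968 and 0.920 (n = 9), and among those with one 0.808 and 0.905 (n = 7).

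No correlation passed for the other 8 genes. Their r ranged from -0.567 for Gstt1 (permutation p = 0.043, adjusted p = 0.145 over 10 genes; rho = -0.473) to 0.244 for Gstm2 (permutation p = 0.420; rho = 0.286), and that of Gstm1 was -0.206 (permutation p = 0.495; rho = -0.286). The part of corneal RNA in the levels of Gsto1 and Gsta4 was not tested apart from RPE RNA. With the score as a covariate, the SE of the Gsta4 log2 fold change in wild type fell from 0.39 to 0.11 and its value from 0.53 to 0.14 (edgeR adjusted p = 0.997). That of Gsto1 in wild type went from 0.14 (SE 0.44) to -0.24 (SE 0.19, adjusted p = 0.997). Without the 2 libraries of highest corneal score, both were below 0 in wild type, at -0.34 for Gsta4 and -0.54 for Gsto1. In knockout, the log2 fold change of Gsta4 was 0.18 (SE 0.39) with all libraries and 0.0754 (SE 0.46) without those of highest rod score. With the corneal score as a covariate it was higher, at 0.34 (SE 0.11, edgeR adjusted p = 0.869), and did not pass. In the same order, that of Gsto1 was -0.0055 (SE 0.44), -0.0606 (SE 0.53) and 0.0692 (SE 0.19).

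**Figure D5:**
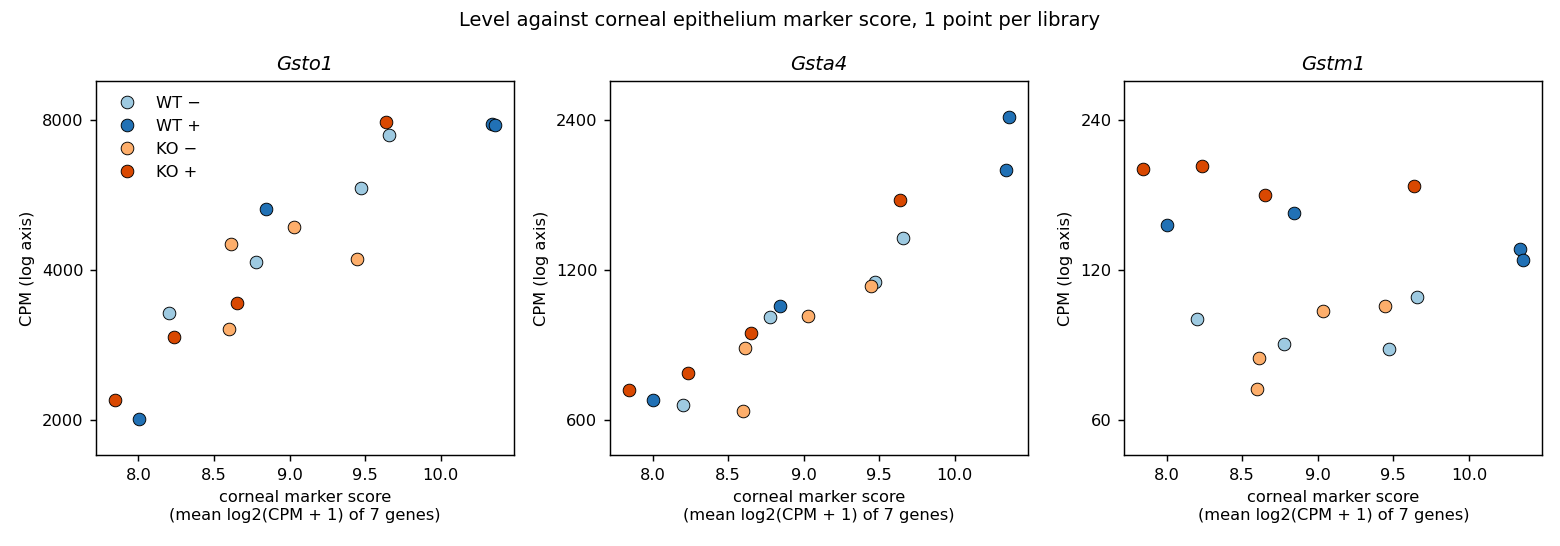
Level of Gsto1, Gsta4 and Gstm1 (CPM, log axis) against the corneal marker score of the same library (mean log2(CPM + 1) of 7 genes), with 1 point per library coloured by group. Gsto1 and Gsta4 rise with the score across all groups, while for Gstm1 every exposed library lies above every untreated one.

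The eyes of 1 mouse could be compared in 3 untreated mice. In the mouse behind replicates 1 and 2 of untreated wild type, the corneal scores were 9.66 and 8.20, and the eyes differed 2.28-fold in Gsto1 and 2.17-fold in Gsta4. The same eyes differed 1.11-fold in Gstm1 and 1.04-fold in Mgst1. In the other wild-type mouse the corneal scores were 8.78 and 9.47, and the eyes differed 1.41-fold in Gsto1, 1.62-fold in Mgst1 and 1.02-fold in Gstm1. In the knockout mouse, with scores of 9.03 and 8.61, the differences were 1.08-fold for Gsto1 and 1.24-fold for Gstm1. In each of the 3 mice the eye with the higher corneal score had the higher Gsto1 and Gsta4.

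The spread within groups set what could be seen for each gene. The SD of log2(CPM + 1) within groups was 0.166 for Gstm5 and 0.176 for Gstm1, lower than for about 80% of the genes tested (percentiles 18 and 21.4). It was 0.441 for Gsta3, 0.595 for Gsta4 and 0.682 for Gsto1 (percentiles 78.1, 88.3 and 91.5). In wild type, the log2 fold change of Gstm1 (0.59) lay inside the 95% intervals of Gsta3 (-0.55 to 0.66), Gsta4 (-0.30 to 1.36) and Gsto1 (-0.80 to 1.07). A change of that size was therefore not excluded in these genes. In knockout, the value of Gstm1 (1.07) lay above the intervals of Gsta4 (-0.65 to 1.00) and Gsto1 (-0.94 to 0.93). The interval of Gstm1 itself (0.80 to 1.33) overlapped both, so these 2 genes were not shown to change less than Gstm1. The value of Gstm1 lay inside the interval of Gsta3 (0.04 to 1.25).

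Loss of Sucnr1 was compared within each treatment. In untreated mice none of the 10 genes passed with edgeR, none had an unadjusted p below 0.05 (1.32% of all genes did), and none passed with DESeq2 or limma, against 0% of all genes with edgeR. The smallest p-values were those of Gstm1 (log2 fold change -0.11, SE 0.12) and Gstp1 (-0.15, SE 0.17), both with an edgeR adjusted p of 1.00. Of the 10 genes, 7 were lower in knockout and 3 higher, where 53.2% of all genes were higher, with a median log2 fold change of -0.13 against 0.01 over all genes.

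Under hydroquinone none of the 10 genes passed with edgeR, DESeq2 or limma either, against 0% of all genes with edgeR and 0.0195% with DESeq2. With an unadjusted p below 0.05 there were 3 genes, all higher in knockout, against 4.18% of all genes. Gstm1 was 183 ± 11.5 CPM in exposed knockout and 141 ± 14.2 CPM in exposed wild type (SD, n = 4 mice each). The groups did not overlap, which held in that direction for 1.83% of all genes, and the log2 fold change was 0.37 (SE 0.12, edgeR adjusted p = 1.00, unadjusted p = 0.010). It was 0.26 (SE 0.15) without the libraries of highest corneal score. Gstt1 had a log2 fold change of 0.38 (SE 0.15, adjusted p = 1.00, unadjusted p = 0.024) and overlapped between the genotypes. Mgst1 had 0.45 (SE 0.21, adjusted p = 1.00, unadjusted p = 0.049).

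Whether the response to hydroquinone depends on genotype was tested as an interaction, and none of the 10 genes passed with edgeR, DESeq2 or limma (0% of all genes with edgeR). Gstm1 was the 1 gene of the 10 with an unadjusted p below 0.05, against 1.92% of all genes, with a log2 difference of 0.48 (SE 0.18, 95% interval 0.10 to 0.85, edgeR adjusted p = 1.00, unadjusted p = 0.017). Over the alternatives this difference ranged from 0.31 to 0.60, and no alternative gave a call. Mgst1 followed with 0.60 (SE 0.30, 95% interval -0.03 to 1.23, adjusted p = 1.00). The call of Gstm1 in knockout and not in wild type with edgeR is therefore not shown to be a difference between genotypes.

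Among further glutathione transferase and related genes, none of those tested passed the threshold with hydroquinone. Of 20 further genes, 17 passed the filter, and 0 passed the threshold in any of the 3 hydroquinone comparisons with edgeR. Averaged over genotype, 11 of the 17 had a log2 fold change above 0, against 51.2% of all genes. Their median was 0.04, against 0.005 over all genes. An unadjusted p below 0.05 was found for 2 genes in wild type, 0 in knockout and 1 averaged. The shares over all genes tested were 4.28%, 2.96% and 5.72%. The gene averaged over genotype was Gsta2, an alpha class gene, at 48.8 ± 9.35 and 71.4 ± 10.4 CPM in untreated and exposed wild type and at 47.5 ± 11.7 and 57.0 ± 2.44 CPM in knockout (SD, n = 4 libraries each). Its log2 fold change averaged over genotype was 0.40 (SE 0.12, edgeR adjusted p = 0.761). The next smallest p-values were those of Alox5ap (0.43), which helps leukotriene synthesis, Gstk1 (-0.20), the mitochondrial kappa class gene, and Gstz1 (-0.21), the zeta class gene of tyrosine breakdown. None of them passed (edgeR adjusted p = 0.909, 0.911 and 0.914).

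Genes that supply glutathione were compared because conjugation uses it up. Of 12 such genes, 1 passed averaged over genotype, against 0.0845% of all genes tested. Gclc, the catalytic subunit of the rate-limiting enzyme of glutathione synthesis, rose from 67.5 ± 7.27 to 112 ± 14.6 CPM in wild type and from 74.3 ± 7.26 to 124 ± 15.6 CPM in knockout (SD, n = 4 libraries each). Its log2 fold change was 0.73 averaged over genotype (SE 0.08, edgeR adjusted p = 8.0e-04), 0.74 in knockout (adjusted p = 0.034) and 0.72 in wild type, where it did not pass (adjusted p = 0.114). Gsr, which regenerates glutathione from its oxidized form, was at 0.34 averaged over genotype (SE 0.08, adjusted p = 0.411), Gclm, the regulatory subunit, at 0.31 (adjusted p = 0.823), and Ggct, which breaks down glutamyl peptides, at -0.33 (adjusted p = 0.861). The median of the 12 was 0.13, with 8 above 0, against 51.2% of all genes.

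Genes listed under conjugate export and mercapturate formation did not pass either. Of 22 genes, 21 were tested and 0 passed in any hydroquinone comparison with edgeR. Averaged over genotype their median log2 fold change was 0.08, with 13 above 0, against 51.2% of all genes. An unadjusted p below 0.05 was found for 0 genes in wild type, 3 in knockout and 1 averaged. Over all genes tested, the shares were 4.28%, 2.96% and 5.72% in that order. The gene averaged over genotype was Ggt5, a glutamyl transferase (0.68, SE 0.29, adjusted p = 0.868). Abcc3, a conjugate exporter, was at 0.46 (edgeR adjusted p = 0.901) and Abcg2, a second exporter, at 0.21 (adjusted p = 0.914). Nat8l, whose part in mercapturate formation is not established here, was at -0.18 (edgeR adjusted p = 0.911).

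By contrast, 5 of 14 genes in a list of Nfe2l2, its partners and known targets passed averaged over genotype, all higher, against 0.0715% of all genes called higher. They were Osgin1 (log2 fold change 1.22), Nqo1 (0.67), Pgd (0.67), Srxn1 (0.65) and Txnrd1 (0.63). Their edgeR adjusted p-values were 1.3e-04, 0.032, 0.0037, 8.0e-04 and 0.033. The list was written with earlier results of these libraries known, so its count is no independent evidence. Its median log2 fold change was 0.46, and 13 of 14 were above 0, against 51.2% of all genes. Nqo1, a quinone reductase, went from 85.8 ± 10.6 to 143 ± 24.7 CPM in wild type and from 96.1 ± 14.7 to 148 ± 25.6 CPM in knockout (SD, n = 4 libraries each). Nfe2l2 itself was at -0.12.

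The genes whose pattern over the 16 libraries was most like that of Gstm1 were looked up among all genes tested other than the 10. Likeness was the root mean square difference of log2(CPM + 1) after centring each gene on its mean. The nearest were Hmox1 (0.189), Txnrd1 (0.196), Pgd (0.205), Gclc (0.215) and Srxn1 (0.216), all of them genes on the lists above. Heme oxygenase Hmox1 had mean levels of 22.4 and 28.0 CPM in untreated and exposed wild type and of 17.5 and 34.6 CPM in knockout. Thioredoxin reductase Txnrd1 had 171 and 237 CPM in wild type and 162 and 280 CPM in knockout. Within the family the nearest gene to Gstm1 was Gstp1 (0.348), while its cluster neighbours Gstm2 (0.412), Gstm5 (0.434) and Gstm4 (0.528) lay farther off, and Gsto1 was farthest (0.828).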

How the data were processed

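RNA was isolated from RPE lifted off the choroid and sequenced on an Illumina instrument, per the labels' protocols. The deposited table holds whole-number counts per Ensembl gene, although it is named for FPKM. The submitters' processing notes name STAR, Cufflinks, DESeq2 and mm10, and the counting tool, annotation and strand setting are not given in the sources used here. Of 51912 identifiers, 51719 matched GENCODE vM21 (GRCm38), the source of symbols, coordinates and exon lengths. Counts were tested with edgeR 4.0.16 (quasi-likelihood F test, TMM scaling, R 4.3.3) in 1 model of 4 groups over 15380 genes whose mean level reached 1 CPM, with Benjamini-Hochberg adjustment and a threshold of 0.05. CPM use TMM-scaled totals. Eyes of a mouse entered as separate libraries, so p-values measure the spread between libraries. The consensus correlation of eyes over the genes tested was -0.017, and it need not hold for a single gene. Untreated wild type thus entered as 4 libraries from 2 mice, with DESeq2 as well. Alternatives used DESeq2 1.42.0 and limma 3.58.1 (log2(CPM + 1), mouse as a random block), other filters, subsets and covariates. Members and lists were chosen with earlier results of these data known. All 10 members were named throughout, for genotype comparisons the 2 with the smallest p, and from other lists the genes past the threshold and the 4 with the smallest p averaged over genotype. Krt12 and Gstp2 were named after their values were seen.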

Additional observations from a re-analysis of the deposited data

Results flagged for a closer look

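In 40 sets of 4 libraries (10 genes, 4 groups), 2 held a library far from the others by Dixon's ratio, and chance alone flags about 1 set in 20. Gstm2 was low in replicate 3 of wild type with hydroquinone, at 26.3 CPM against 33.7 to 35.4 CPM in the other libraries (ratio 0.832). That library also had the lowest Gsto1 level of all 16. Gstm5 was high in replicate 1 of untreated wild type, at 71.4 CPM against 56.5 to 58.4 CPM (ratio 0.861). Without that library the log2 fold change of Gstm5 in wild type kept its direction. The 2 values stand in no gene that passed the test.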

How the results depend on the processing

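Of 1152 values of the 10 genes under alternatives, 76 changed sign, none of them a value past the threshold. The count of genes past the threshold in wild type was 1 with DESeq2 (0 with edgeR). In knockout it was 0 instead of 1 among libraries without a letter, among those with a letter and with the compared groups alone, and averaged over genotype it was 0 instead of 1 in either letter subset, where fewer libraries enter. Leaving out each library in turn gave 0 to 0 genes in wild type, 1 to 1 in knockout, 1 to 1 averaged and 0 to 0 in the genotype and interaction comparisons. No paired analysis was possible because replicate numbers follow accession order only.

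Signs changed as follows (log2 fold changes), and the cause was not tested. Without a letter, wild type gave Gstm2 -0.0798, Gstm5 -0.0616, Gsta3 -0.17 and Gstp1 -0.0931, knockout gave Gstm2 -0.0793, Gstt1 -0.20 and Gsto1 0.32, the average gave Gstm2 -0.0796, Gstp1 -0.0267 and Mgst1 -0.0490, untreated knockout against wild type gave Gstm1 0.042 and the interaction gave Gsto1 0.32. With a letter, wild type gave Gstm4 0.0881 and Mgst1 0.30, knockout gave Gsta4 -0.0444, the average gave Gstm4 0.0097, Gstt1 0.12 and Gsto1 -0.21, and the interaction gave Gstm4 -0.16 and Gstm5 -0.25. Gsto1 averaged was -0.0688 with limma, -0.0691 with limma at a pseudocount of 0.1 and -0.0323 with the identifier form as a covariate, and in knockout it was 0.0726 with eyes summed. With the corneal score as a covariate, Gsto1 was -0.24 in wild type, 0.0692 in knockout, -0.085 averaged and 0.31 in the interaction, and Gsta4 was 0.21 in the interaction. Without the libraries of highest corneal score, wild type gave Gsta4 -0.34, Gsto1 -0.54 and Gstp1 -0.0039, the average gave Gsta4 -0.0790 and Gsto1 -0.27, and the interaction gave Gsta4 0.51 and Gsto1 0.53. Without those of highest rod score, the interaction gave Gstm4 -0.0210 and Gstm5 -0.0030.

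With 1 library left out, wild-type values ranged from -0.0863 to 0.28 for Gsta3, -0.0173 to 0.20 for Gstp1, -0.0557 to 0.42 for Gsto1 and -0.23 to 0.0445 for Mgst1. Knockout values ranged from -0.23 to 0.0952 for Gstm4, -0.20 to 0.32 for Gsta4, -0.0082 to 0.24 for Gstt1 and -0.55 to 0.21 for Gsto1, and Gsto1 averaged from -0.21 to 0.21. Interaction values ranged from -0.0359 to 0.20 for Gstm2, -0.0675 to 0.26 for Gstm4, -0.0446 to 0.155 for Gstm5 and -0.69 to 0.0683 for Gsto1. The difference in the ratio of Gstm1 to Gsto1 ranged from 0.69 to 1.04. The alternatives with the corneal score and those without libraries of highest score, and those of the ratios, were chosen after seeing the data. The correlations with the corneal score were not planned either.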
